A study of Mus musculus with 4 samples.

Results

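The miR-297, miR-466, miR-467 and miR-669 names make up a large rodent group, most of whose genes lie in a single intron of Sfmbt2. Members were the rows of the deposited table whose name, after mmu-miR-, has exactly 1 of these 4 numbers with any letter or arm. This rule found 45 of the 1038 listed miRNAs, 3 miR-297, 19 miR-466, 7 miR-467 and 16 miR-669 rows. The small RNA came from the medial prefrontal cortex of C57BL/6 mice (C57BL/6J in the study's methods), 2 libraries from control mice and 2 from mice with depression-like behaviour after chronic unpredictable mild stress (CUMS), a schedule of varied mild stressors. The labels give no age, and the study's methods describe male mice that were juvenile at the start. The labels say that RNA was isolated from each mouse but not whether a library pooled several. The study set out to find miRNAs that differ between these groups, and the question here is at what level the Sfmbt2 miRNAs were present and whether that level differed.

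A miRNA gene is transcribed as a hairpin, the precursor, whose arms (5p and 3p) can each give a mature miRNA that guides silencing of mRNAs matching its seed, bases 2 to 8. Sfmbt2 encodes a Polycomb group protein, and in the mouse the gene is imprinted, with the paternal copy expressed in the placenta. The miRNAs in its intron belong to a repeated block that expanded in rodents, and they are best known from placenta and embryonic stem cells. Many precursors of the block are near copies of each other, so a read can match several names, and the table can then list the same read under more than 1 row.

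The files hold group means, from which the reads of every library were recovered as whole numbers. The depth was 9589323 to 10783592 reads on known miRNAs per library, summed over rows, so reads listed under several rows count more than once in it. The letters a and b only separate the libraries of a group. Normalised reads are reads divided by the size factor of the library. Brain miRNAs were abundant in all libraries (129564 to 157031 CPM, counts scaled to the same total in each library, for a list of 5). Control library b stood apart by 1005214 reads on a list of 8 epithelial miRNAs, against 4137 to 6917 in the other libraries, and its part in the results was not tested beyond leaving it out. The study's methods describe the sequenced samples as biological duplicates, the labels do not say how many mice a library holds, and p-values measure only the spread between these libraries.

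Of the 45 members, 44 could be matched by name to annotated precursors (GENCODE M21, GRCm38, the same assembly as mm10 in the submitters' processing notes). The exception was miR-466a-3p. Whether it comes from Mir466, a precursor without a letter in Sfmbt2 (chromosome 2, 10507918 to 10507990), was not settled. The annotation holds 81 precursors with these numbers, and 71 of them lie in 1 Sfmbt2 intron (chromosome 2, 10461473 to 10523944, 62.5 kb). All 71 are on the strand of Sfmbt2 and 0 are in an exon. They span 10466663 to 10518279, with 5 precursors of miR-297, 23 of miR-466, 14 of miR-467 and 29 of miR-669 names. The order of Mir467, Mir466 and Mir669 recurs as 11 triplets, and the 10 copies of Mir467a start a median of 2462 bp apart. A precursor in this intron was found for 41 members. Only 3 had all their precursors elsewhere, miR-466q in a Tnik intron (chromosome 3, 28419943 to 28420018, same strand as the host) and both arms of miR-466i in a Cdk13 intron (chromosome 13, 17747473 to 17747593, opposite strand).

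**Figure D1:**
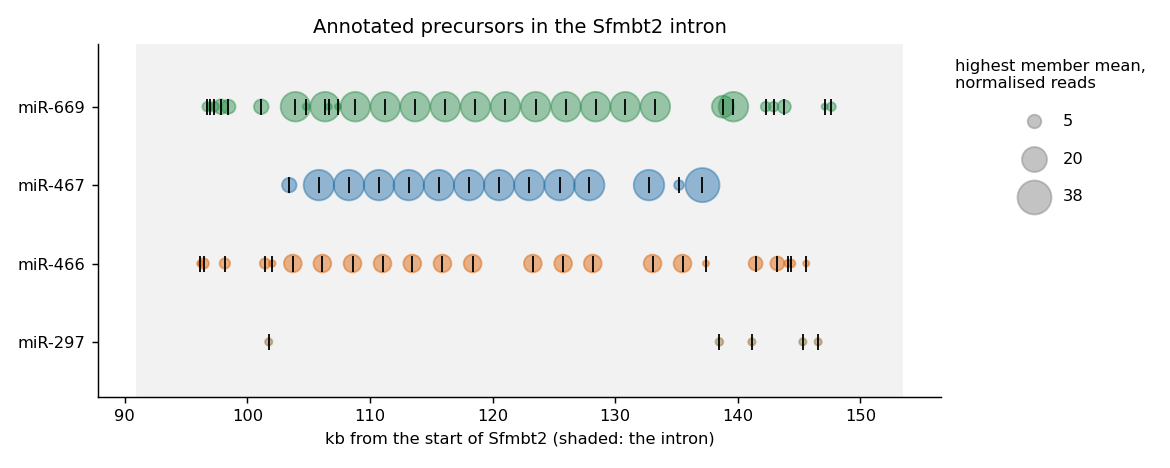
Precursors annotated in the Sfmbt2 intron (black ticks) by distance from the start of Sfmbt2 in kb, in a line for each number. The area of a circle grows with the highest mean, in normalised reads over the 4 libraries, of a member with that precursor's name. Reads cannot be assigned to single copies, so all copies of a name carry the same circle, and the largest circle is the single Mir467d.

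Mature sequences were taken from RefSeq (GRCm38.p6), whose table matched 2 members, both outside Sfmbt2. They are shown with the seed in capitals, because they are the only members with an entry.
miR-466q: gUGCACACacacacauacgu
miR-466i-3p: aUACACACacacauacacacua
The first is at chr3:28419988-28420007 and the second at chr13:17747552-17747573, both on the + strand. The seeds differ from each other, and no other mature sequence in the table shares either. The letters ACACAC or UGUGUG, read on the strand of the miRNA only, were in 8 of the 8 sequences of these number groups in the table, the other 6 being of miRNAs that are not among the members, against 39 of all 1679 (2.32%). Both printed sequences hold ACACAC. All 8 lie outside Sfmbt2, so no sequence from its intron was looked at. These sequences are a description, and the remaining members were not compared by sequence.

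The Sfmbt2 miRNAs were scarce among the counted reads of the medial prefrontal cortex. The study's methods list repeat RNA among the reads removed before counting, and whether this took reads of the group was not tested. The median level of the members was 1.99 normalised reads, against 9.92 over all listed miRNAs. The most abundant, miR-467d-5p, ranked 385 of 1038 with 38.6. At least 5 reads in a library were found for 23 of the 45 members (51.1%), against 719 of all 1038 miRNAs (69.3%). Reads in all 4 libraries were found for 19 members, and 12 had reads in 1 library only. A count of 3 reads corresponds to 0.278 to 0.313 CPM, which is the floor of a member at 0. Intervals and floors here cover counting error only, since reads carry no molecular identifiers.

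**Figure D2:**
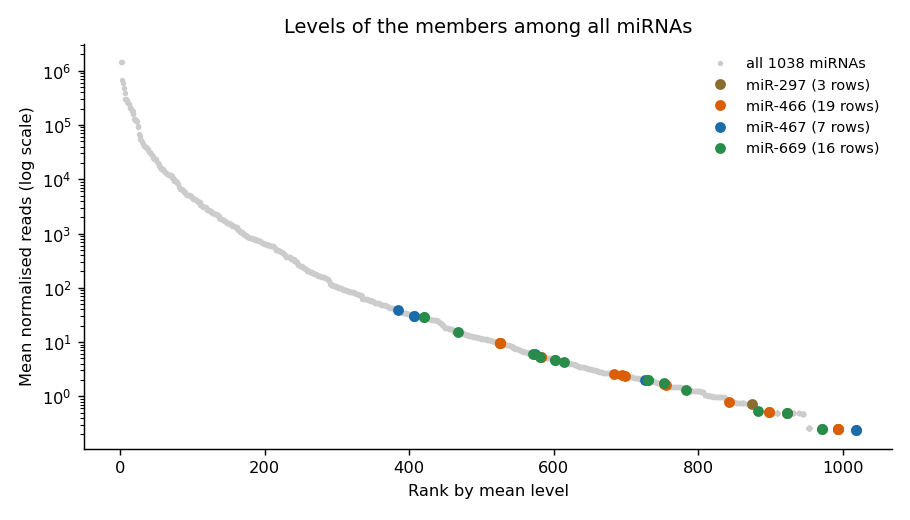
Mean level in normalised reads (log scale) of each miRNA against its rank, with the 45 members in colour by number. The members begin at rank 385 and reach down to the miRNAs seen with a single read.

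Other groups of imprinted or rodent miRNAs in the same libraries lay higher. In the miR-344 family, a rodent brain family, 7 of 13 rows had 5 reads in a library (53.8%) and the median was 6.14. In the imprinted Mirg cluster 60 of 67 rows did (89.6%), with a median of 103. Summed over rows, the Mirg cluster held 27045 to 29163 CPM and the miR-344 family 422 to 528, against 22.3 to 35.8 for the Sfmbt2 miRNAs. The order of the 3 groups was the same in all 4 libraries.

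Identical values were frequent among the members. The 45 rows hold 28 distinct patterns of reads over the 4 libraries, and 11 of these patterns are shared by several rows, 28 rows in all. The largest set is miR-466a-3p, miR-466b-3p, miR-466c-3p, miR-466e-3p and miR-466p-3p. The pairs with many reads are miR-467a-5p with miR-467b-5p, miR-669a-5p with miR-669p-5p, miR-466d-5p with miR-466n-5p, and miR-669a-3p with miR-669o-3p. None of these 5 patterns occurs in a row outside the group. Sets of 8 reads or fewer are less certain. miR-669b-5p and miR-669m-5p share 8 reads, with 1 row outside the group at the same values. The other 5 sets, with 1 or 2 reads in all, share their values with 2 to 21 outside rows, so equal numbers there can be coincidence. They are miR-466c-5p with miR-466g, miR-297a-5p with miR-297b-5p and miR-669e-3p, miR-669f-5p with miR-669k-5p, miR-466b-5p with miR-466e-5p, miR-466n-3p and miR-466o-5p, and miR-467a-3p with miR-467d-3p. Counting each set once, the group had 708 reads over the 4 libraries in place of 1162. Sets equal by coincidence would hold separate reads, which the lower total leaves out.

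These 708 reads came mainly from the 5p arms of miR-467 and miR-669. The miR-467 names held 312 reads (44.1%), the miR-669 names 284 (40.1%), the miR-466 names 109 (15.4%) and the miR-297 names 5 (0.706%). The set of miR-297a/b-5p and miR-669e-3p, with 2 reads whose equality can be coincidence, was counted under both numbers. The 4 largest sets, miR-467d-5p, miR-467a/b-5p, miR-669a/p-5p and miR-669c-5p, held 456 reads (64.4%).

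miR-467d-5p gave 43 and 38 control reads, in libraries a and b, against 45 and 30 CUMS reads. miR-467a-5p and miR-467b-5p, which share their reads, had 32 and 31 control against 31 and 29 CUMS reads. In this pair all 4 libraries lay within a few reads of each other, and in miR-467d-5p CUMS library b was the lowest. miR-467c-5p had 9 and 8 control against 5 and 2 CUMS reads. miR-467e-5p had 4 and 3 control against 0 and 1 CUMS reads. In both the CUMS libraries were below the control libraries, at few reads. The number of precursors did not order these levels. miR-467d-5p has 1 precursor and 156 reads over the libraries, while miR-467a-5p and miR-467b-5p have 11 precursors between them and 123 reads. Mir467e starts 1.91 kb before Mir467d on the same strand of the same intron, and its 5p arm had 8 reads. miR-467d-5p was above miR-467e-5p in all 4 libraries.

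Among the miR-669 names, miR-669a-5p and miR-669p-5p had 31 and 40 control against 31 and 14 CUMS reads, from 14 precursors. miR-669c-5p, with 1 precursor, had 21 and 11 control against 13 and 16 CUMS reads. Its CUMS values lay between the control values. miR-669d-5p had 2 and 8 control against 6 and 8 CUMS reads. miR-669l-5p had 11 and 4 control against 5 and 2 CUMS reads. miR-669o-5p had 9 and 2 control against 1 and 5 CUMS reads. In these 3 the groups overlapped, and the spread within a group was as wide as the gap between groups. miR-669b/m-5p had 4 reads in each control library and 0 in each CUMS library. miR-669h-5p had 0 reads in 3 libraries and 5 in CUMS library b. The other miR-669 patterns stayed at or under 6 reads in every library.

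Over all libraries the miR-466 names had 70 reads on 3p arms and 30 on 5p arms, but CUMS library b had 5 and 17, and 32 of the 3p reads were in control library a. The set of miR-466a, b, c, e and p-3p had 23 and 6 control against 8 and 2 CUMS reads, so its highest value came from control library a alone. miR-466d-5p and miR-466n-5p had 2 and 5 control against 4 and 10 CUMS reads. The groups overlapped in both sets. Single rows with fewer reads were miR-466f-3p, with 4 and 4 control against 2 and 0 CUMS reads, and miR-466d-3p, with 2 and 2 control against 6 and 0 CUMS reads. The members encoded elsewhere were at the same low level. miR-466q had 3 and 3 control against 0 and 4 CUMS reads, and miR-466i-3p had 2 and 3 control against 2 and 0 CUMS reads. miR-466i-5p was listed with 0 reads in 3 libraries and 6 in CUMS library b. Of the miR-297 names, miR-297c-5p had 0 and 1 control against 2 and 0 CUMS reads, and the set of miR-297a-5p and miR-297b-5p had 1 read in each control library and 0 in each CUMS library.

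**Figure D3:**
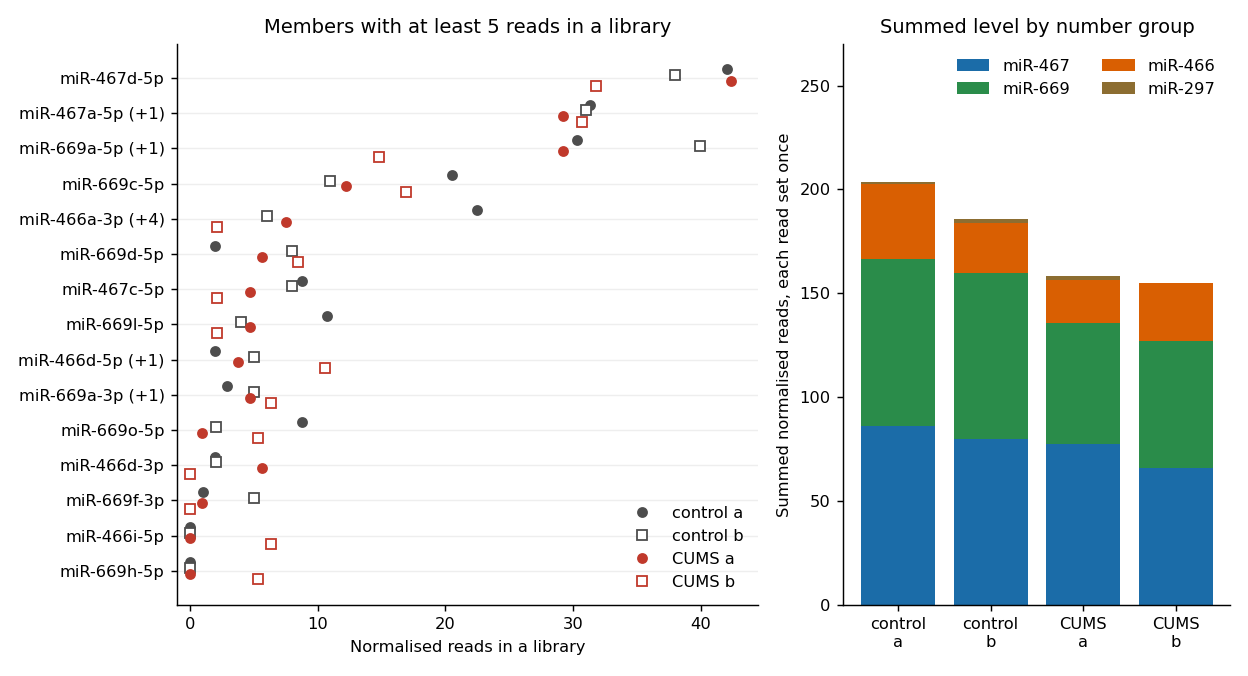
Left, normalised reads of the 15 read sets with at least 5 reads in a library, 1 point per library, with the number of further rows sharing the reads in brackets. Right, summed normalised reads in each library by number, with each read set counted once, which stood at 203 and 186 for control against 158 and 155 for CUMS.

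The arm that held the reads differed between names of the same intron. Both arms are listed for 12 names. In miR-467a, 123 of 124 reads were 5p (99.2%, with a lower 95% exact binomial bound of 95.6%), and in miR-467d 156 of 157 were (99.4%, lower bound 96.5%). In miR-669a the 5p arm held 116 of 135 reads (85.9%, 78.9% to 91.3%). In miR-466b, by contrast, the 5p arm held 1 of 40 reads (2.50%, 0.0633% to 13.2%), and in miR-466c 2 of 41 (4.88%, 0.596% to 16.5%). The intervals of miR-466b and miR-466c lie wholly below those of miR-467a, miR-467d and miR-669a. In miR-466n the 5p arm held 21 of 22 reads (95.5%, 77.2% to 99.9%), the 21 being shared with miR-466d. In miR-466d the arms were closer, with 21 reads of 5p and 10 of 3p (67.7%, 48.6% to 83.3%), and in miR-669o with 17 and 19 (47.2%, 30.4% to 64.5%). Reads shared between names enter several of these shares, such as the 39 reads of the miR-466 3p set and the 19 of miR-669a-3p and miR-669o-3p, so these shares are not independent.

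**Figure D4:**
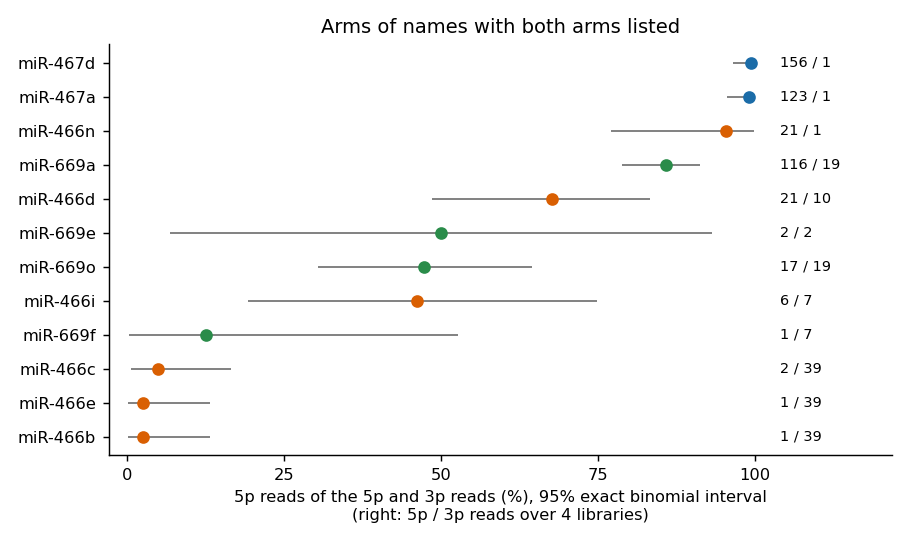
Share of 5p reads among the 5p and 3p reads of the 12 names with both arms listed, over the 4 libraries, with 95% exact binomial intervals and the reads of each arm at the right. The 3 miR-466 names at the bottom share their 3p reads, and miR-467a and miR-467d lie above 99%.

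Between control and CUMS, no member was called different. limma on log2(normalised reads + 1), with at least 5 reads in a library required, tested 719 miRNAs and called 0 (0%) at an adjusted p under 0.05, with 28 (3.89%) at an unadjusted p under 0.05. Of the 23 members tested, 0 were called and 0 had an unadjusted p under 0.05. The smallest adjusted p of a member was 0.835 with the Benjamini-Hochberg adjustment. The other 22 members were tested only without the filter, where miR-669b-5p and miR-669m-5p had a log2 difference of -2.31 (SE 0.46) and a limma adjusted p of 0.676. They were the only members with an unadjusted p under 0.05 there, against 58 of all 1038 miRNAs. edgeR's quasi-likelihood test with TMM and DESeq2 on the recovered reads also called 0 of all miRNAs, with 30 and 24 at an unadjusted p under 0.05 and 0 members among them. The median log2 difference of the 23 members in limma was -0.21, with 16 of them lower in CUMS. Over all 719 the median was 0.00. These 23 rows are 15 read sets, and a set counts once per row, the miR-466 3p set 5 times. By the ratio of the deposited means, where the higher one reached 5, 14 of 19 members and 8 of 11 sets were lower. Over all miRNAs at that level 47.3% were lower. The median log2 ratio was -0.68 for these members and -0.11 for these sets, against 0.02 over 623 miRNAs with reads in both groups.

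For most of the abundant members the difference was small against its error. limma's log2 difference (CUMS minus control) was -0.12 (SE 0.33) for miR-467d-5p, -0.05 (SE 0.33) for miR-467a/b-5p and -0.06 (SE 0.51) for miR-669c-5p. For miR-669a/p-5p it was -0.71 (SE 0.45, adjusted p = 0.835), and it ranged from -0.25 without CUMS library b to -1.18 without CUMS library a. The lower members with fewer reads had wider errors, with -1.31 (SE 0.86) for the miR-466 3p set, -1.15 (SE 0.70) for miR-467c-5p and -0.86 (SE 0.81) for miR-669l-5p. Those with a positive difference were miR-466d/n-5p at 0.82 (SE 0.83) and miR-669d-5p at 0.62 (SE 0.80). None of these reached 2 standard errors. The miR-466 3p set was at -0.44 without control library a and at -2.19 without control library b, and miR-669l-5p at -0.24 and -1.48.

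**Figure D5:**
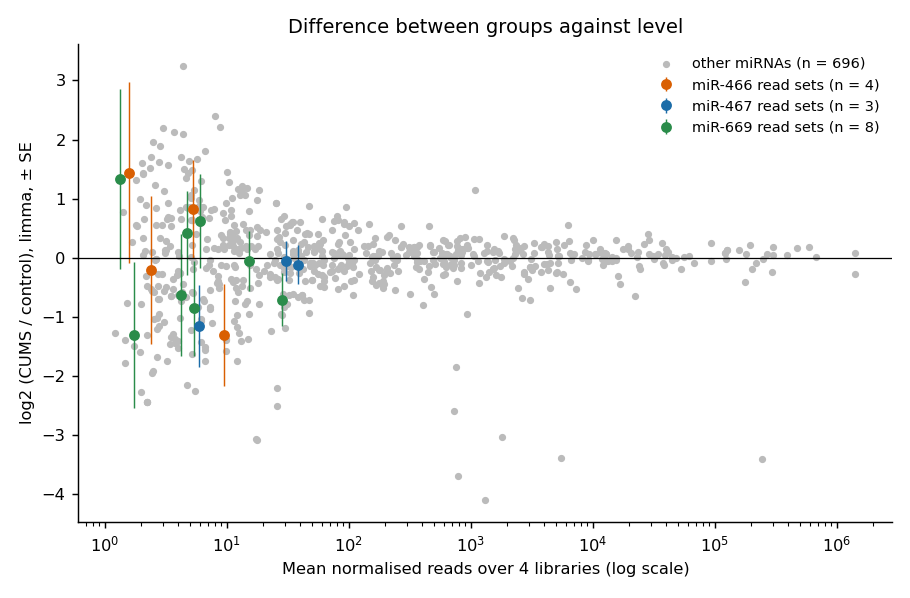
limma's log2 difference between CUMS and control against the mean of normalised reads (log scale) for the 719 miRNAs tested, with the 15 read sets of the group in colour and their standard errors as bars. Differences of other miRNAs spread as widely at the same low level.

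By the ratio of the deposited means, among rows whose larger group mean was at least 5, 10 of 19 members were past a fold of 1.5 and lower in CUMS, and 2 were past it and higher. The background over all 628 miRNAs was 13.7% lower and 11.9% higher. Among the 256 with a larger group mean under 50, the range in which the members lie, it was 26.2% lower and 25.4% higher. A row can pass the minimum through its higher group alone, so these counts are a description. The 10 lower rows are 5 read sets of the 11 with that mean. They are the miR-466 3p set (14.2 in control against 4.83 in CUMS, a ratio of 0.339 with a 95% counting interval of 0.151 to 0.734), miR-467c-5p (8.40 against 3.41, 0.406, 0.146 to 1.05), miR-669l-5p (7.38 against 3.41, 0.463, 0.162 to 1.23), miR-669o-5p (5.40 against 3.12, 0.578, 0.167 to 1.62) and miR-669a/p-5p (35.2 against 22.0, 0.626, 0.430 to 0.942). The higher set is miR-466d/n-5p (3.48 against 7.18, 2.07, 0.762 to 5.90). The counting interval excluded a ratio of 1 for the miR-466 3p set and for miR-669a/p-5p, and it leaves out the spread between libraries. The number of members past the fold changed when a library of either group was left out, and the share over all miRNAs was not computed there. miR-669b/m-5p, under the minimum mean, had 8 control reads and 0 CUMS reads, and the counting interval of its ratio reached up to 0.591.

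The CUMS libraries lay wholly below the control libraries for 6 of the 23 members with at least 5 reads in a library, and wholly above for 0. Over all 719 miRNAs these shares were 17.1% and 16.7%. The 6 rows are miR-669a/p-5p, miR-467a/b-5p, miR-467c-5p and miR-669f-3p. For miR-467a/b-5p the gap was between the control value of 30.99 and the CUMS value of 30.73 normalised reads. For miR-669a/p-5p it was between 30.3 and 29.2, from 31 reads in each. miR-669f-3p had 1 and 5 control against 1 and 0 CUMS reads, and its gap was between 0.978 and 0.942. For these 2 sets equal reads were set apart only by the size factors. Scaled to library totals (CPM) in place of size factors, the CUMS libraries lay below for 1 member, miR-467c-5p, and above for 2, miR-669a-3p and miR-669o-3p (11.8% and 22.7% over all miRNAs), so the direction of this count depended on the scaling.

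Summed over the group with each read set once, the control libraries gave 208 and 186 reads against 168 and 146 for CUMS. The sum in CPM was 19.7 (95% exact interval 17.2 to 22.6) and 17.2 (14.9 to 19.9) in control, and 16.1 (13.8 to 18.7) and 15.2 (12.9 to 17.9) in CUMS. In normalised reads the mean was 195 ± 12.4 (SD, n = 2) in control and 156 ± 2.47 (SD, n = 2) in CUMS, a log2 ratio of -0.32. The groups did not overlap, and the two-sided exact permutation p was 0.333, the smallest that 2 libraries against 2 can give. Without control library b the log2 ratio was -0.38, without control library a -0.25, and with library totals (CPM) -0.24. Without the 3 largest sets the groups overlapped, with 99.8 and 77.0 normalised control reads against 57.4 and 77.3 for CUMS. A list of 2 choroid plexus miRNAs, both found, was also lower in CUMS, with 1644 and 2042 CPM for control against 1625 and 1243. So was a muscle list (2 of 3 found, only 1 of them with reads in all libraries), with 21.9 and 32.3 against 19.8 and 19.4. The brain list was higher in CUMS, with 147722 and 129564 against 157031 and 155845. In CPM a blood list of 3 was higher too, with 11621.5 and 10684.3 against 11670.8 and 13309.9. CUMS library a had 121699 blood reads at a size factor of 1.06, against 122417 at 1.02 in control library a. In normalised reads the groups of the blood list therefore overlapped. In the epithelial list the groups overlapped. The part of these lists in the sum was not tested. With the set of miR-297a/b-5p and miR-669e-3p counted under miR-297, the miR-669 names gave 80.2 and 80.0 normalised control reads against 58.4 and 61.5 for CUMS. The miR-467 names gave 86.1 and 80.0 against 77.2 and 65.7. The miR-466 names overlapped, with 36.2 and 24.0 for control against 20.7 and 27.5 for CUMS. In bulk tissue, fewer cells of a type and less RNA per cell cannot be told apart.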

How the data were processed

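Small RNA was sequenced from the medial prefrontal cortex of 2 control and 2 CUMS samples. The authors removed adaptor and low-quality reads, and reads of other noncoding RNA, among which the study's methods list repeat RNA. They aligned the rest without mismatch to mouse miRBase precursors and tallied them for each mature miRNA. The signal the authors deposited is the mean over the 2 libraries of each group of reads divided by the DESeq size factor of the library. Its columns carry no group names and were assigned to control and CUMS because the study prints these values under those headings. The deposited fold changes and p-values were not used. The submitters' processing notes name Bowtie, DESeq and mm10, and the miRBase release is not given in the sources used here.

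Each group mean was split into whole reads of its 2 libraries, each times its own step. All 1038 values of each group came out whole (100%, relative residual under 1e-09), and 2 control values had a second pair within 10 times the best residual. The depth of 9589323 to 10783592 reads limits the precision of members with few reads.

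Because the deposited unit is a signal, limma 3.58.1 on log2(normalised reads + 1) was the main test, for miRNAs reaching 5 reads in a library, on all 4 libraries with group as the factor, and p-values were adjusted by the Benjamini-Hochberg method over all miRNAs tested. edgeR 4.0.16 and DESeq2 1.42.0 on the recovered reads were alternatives, with other pseudocounts, filters and scalings and leaving out each library. All were run in R 4.3.3, with recovery and intervals in Python 3.11.15 (scipy 1.17.1), and the recovery and the fits were tested on simulated data. The named members were the 3 most abundant of each number, every member with an unadjusted p under 0.05, the 3 highest and 3 lowest ratios where either group mean reached 5, and every set of rows with identical values, and others were added after their values were seen. The members, lists and rule were chosen with earlier results of these data known.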

Additional observations from a re-analysis of the deposited data

How the results depend on the processing

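No member was called by limma, edgeR or DESeq2 under any filter, pseudocount, scaling or left-out library that was run, so the lack of calls did not depend on these. At an unadjusted p under 0.05 there were 0 members in the main limma test, against 28 of all 719 miRNAs. Without a filter there were 2 (miR-669b-5p and miR-669m-5p, which have equal reads), against 58 of all 1038. Such counts are left out for fits without a library, where 1 group has a single library. The edgeR fits without a library and the limma fit on library totals were chosen after seeing the data, as was the range of group means under 50 used as a background. A library that is alone in its group was assumed to vary like the other group. The number of members past a fold of 1.5 depended on the minimum mean, with 12 at a minimum of 5, 34 with no minimum and 0 at a minimum of 50, a level that no member reaches. With 1 row for each set of identical values it was 6, and it ranged from 3 to 16 when a library was left out, the lowest without control library a. The share of members whose groups did not overlap was 26.1% with size factors and 13.0% with library totals (CPM), where the split was 1 lower and 2 higher in place of 6 lower and 0 higher. The summed level over all rows stayed lower in CUMS, with a log2 ratio of -0.47, and of -0.31 to -0.61 when a library was left out. With each read set once these were -0.32 and -0.25 to -0.38, and -0.24 with library totals. Of 15 read sets tested, 9 kept the direction of their log2 difference under every alternative that could be fitted (86 in all, at most 6 for a set) and 6 did not. The 9 include miR-466i-5p and miR-669h-5p, whose reads were all in CUMS library b, so their direction could not turn. Both passed the filter through that library alone and were not fitted without it. Likewise, miR-669f-3p was not fitted without control library b. With library totals, which moved the median of all 719 miRNAs from 0.00 to 0.080, the log2 difference was 0.020 for miR-467a-5p and 0.011 for miR-669c-5p. In edgeR it was 0.50 for miR-466d-3p. When a library was left out it ranged from -0.32 to 0.082 for miR-467d-5p, from -0.48 to 0.36 for miR-669c-5p, from -0.18 to 1.42 for miR-669d-5p, from -1.49 to 0.22 for miR-669o-5p and from -0.22 to 1.16 for miR-466d-3p. The cause of these changes was not tested. No paired analysis was possible because the recovered libraries cannot be tied to the replicate numbers in the labels. Of the 45 members, 31 had fewer than 10 reads in every library, where the counting error is large.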
